A study of Arabidopsis thaliana with 6 samples.

Results

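The PYR/PYL genes of Arabidopsis thaliana encode the soluble receptors of abscisic acid, and 9 of them, PYR1, PYL1, PYL2, PYL4, PYL5, PYL6, PYL7, PYL8 and PYL9, were taken by locus identifier from a table of 21981 genes. Their transcripts were measured by RNA sequencing in leaves of 3 transgenic lines and 3 wild-type samples, all of the Col-0 accession and 4 weeks old. Plants were raised at 22 °C with 16 h of light and 8 h of dark. The labels give transgenic lines 1 to 3 and name neither the transgene nor its promoter. Drought treatments are mentioned in the same words for every sample, so any difference in watering between the groups cannot be told apart from the genotype. Whether the wild-type samples are separate plants is not stated, and p-values reflect only the variation among these libraries, part of which may be technical.

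Abscisic acid is a hormone of drought, cold and seed dormancy, and in leaves it closes stomata and switches on protective genes. A receptor binds the hormone in a pocket, a loop called the gate folds over it, and the closed receptor then blocks a clade A protein phosphatase 2C (PP2C), the co-receptor. With the phosphatase blocked, SnRK2 kinases become active and phosphorylate ABF transcription factors and the guard cell channel SLAC1. The family falls into subfamily III (PYR1, PYL1 and PYL2 here), whose proteins pair up when no hormone is bound, and subfamilies II (PYL4, PYL5 and PYL6) and I (PYL7, PYL8 and PYL9), whose proteins are mostly single. In Arabidopsis, abscisic acid treatment is known to lower the transcripts of several receptors and to raise those of the PP2C genes.

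The pool of receptor transcripts was smaller and differently composed in the transgenic lines. Receptor protein was not measured. PYL6 and PYL8 fell, to 0.145 and 0.476 of their wild-type mean FPKM (fragments scaled for transcript length and library size), PYL7 rose to 2.09 times its wild-type mean, and PYL4 and PYL5 fell by smaller amounts. In whole leaves, fewer cells of a type and less RNA per cell cannot be told apart. Genes averaging at least 1 FPKM were tested, among them 8 members, of which 1 was higher and 4 were lower in the transgenic lines at a limma adjusted p under 0.05 and 3 were not called. Over all 17093 genes tested, 40.7% were called, 25.0% higher and 15.7% lower. The median log2 fold change of the 8 members was -0.31, against 0.03 for all tested genes. All fold changes set transgenic lines over wild type after log2(FPKM + 1), a transformation that shrinks the change of genes with low values. The same 5 members had groups that did not overlap, 1 higher and 4 lower, where 52.2% of all tested genes did not overlap, 30.2% higher and 22.0% lower.

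**Figure D1:**
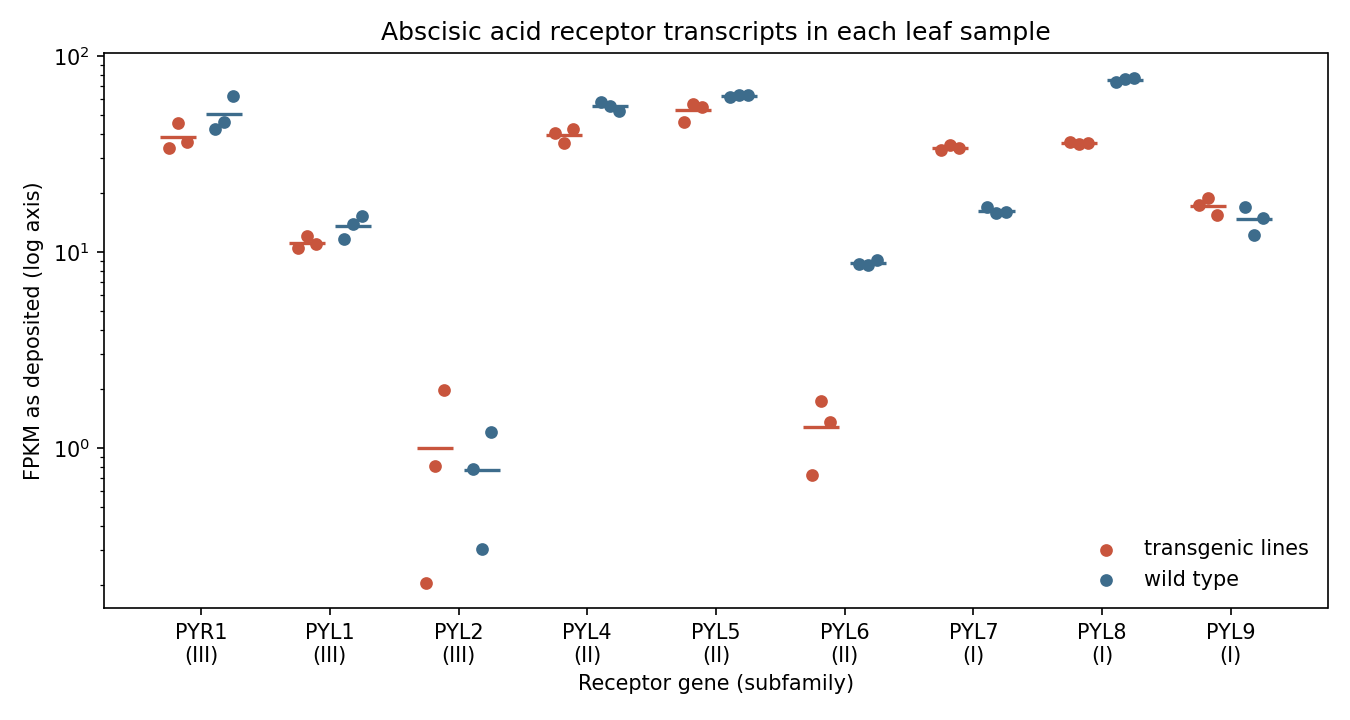
FPKM of each receptor gene in each sample on a log axis, with transgenic lines in red, wild type in blue and the group mean as a line. The groups lie apart for PYL4, PYL5, PYL6, PYL7 and PYL8, and the 3 transgenic PYL7 values, 33.2 to 34.9 FPKM, lie above the wild-type values of 15.7 to 17.0 FPKM.

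In subfamily III the group ranges overlapped for every member. PYR1, the receptor through which the synthetic agonist pyrabactin was first shown to act, had 33.7, 45.4 and 36.5 FPKM in transgenic lines 1, 2 and 3, against 42.4, 45.9 and 62.4 FPKM in wild-type samples 1, 2 and 3. Transgenic line 2 reached the wild-type range, and wild-type sample 3 stood highest. The log2 fold change was -0.37 (SE 0.151, limma adjusted p = 0.085), and its adjusted p ran from 0.00275 to 0.258 over 14 alternatives, of which 4 gave a call. PYL1, the closest relative of PYR1 among the members by coding sequence (75.2% identity), had 10.4, 12.1 and 10.9 FPKM in the transgenic lines, against 11.6, 13.9 and 15.3 FPKM in wild type. Its log2 fold change was -0.26 (SE 0.118, limma adjusted p = 0.112). Without wild-type sample 1 the adjusted p was 0.0494 for PYR1 and 0.0428 for PYL1, and without transgenic line 2 that of PYR1 was 0.0359. PYL2 was the lowest member, at 0.204, 0.806 and 1.98 FPKM in the transgenic lines and 0.783, 0.305 and 1.21 FPKM in wild type. Its mean lay under the 1 FPKM needed for testing.

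In subfamily II the 3 members fell by very different amounts. PYL6, a receptor known to bind the jasmonate transcription factor MYC2, had 0.725, 1.73 and 1.36 FPKM in the transgenic lines, against 8.64, 8.57 and 9.1 FPKM in wild type. Every transgenic value was far below every wild-type value. The mean was 1.27 ± 0.507 FPKM in the transgenic lines and 8.77 ± 0.29 FPKM in wild type (SD, n = 3 each), which gives a log2 difference of -2.13 (SE 0.184, limma adjusted p = 1.79e-05). With a pseudocount of 0.1 in place of 1 the log2 fold change was -2.77.

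PYL4 and PYL5 are close relatives of PYL6, with coding identities of 69.1% and 67.3% to it. PYL4 had 40.5, 36.1 and 42.3 FPKM in the transgenic lines, against 58.1, 55.6 and 52.6 FPKM in wild type. The groups did not overlap, and the log2 fold change was -0.48 (SE 0.0761, limma adjusted p = 0.000922). PYL5 had 46.2, 56.9 and 55.1 FPKM in the transgenic lines, against 61.4, 63.2 and 63.5 FPKM in wild type. All 3 transgenic values were lower, transgenic line 1 by the most, the log2 fold change being -0.25 (SE 0.0814, limma adjusted p = 0.0347). The call of PYL5 was lost without transgenic line 1 (log2 fold change -0.16, adjusted p = 0.0833) and without any single wild-type sample (adjusted p from 0.0659 to 0.0892). It was also lost with no filter (limma adjusted p = 0.051) and without the mean-variance trend (0.0797). The ratio of PYL6 to PYL5 was 0.0236 ± 0.00739 in the transgenic lines and 0.14 ± 0.00385 in wild type (SD, n = 3 each), so PYL6 lost more than its relative within the same samples.

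In subfamily I the members moved in opposite directions. PYL8, known for its role in root responses to abscisic acid and as a receptor that the hormone stabilizes, had 36.5, 35.6 and 36.0 FPKM in the transgenic lines, against 73.7, 76.4 and 76.9 FPKM in wild type. The replicates of each group lay close together and the groups were far apart. PYL8 fell, its log2 fold change being -1.05 (SE 0.0557, limma adjusted p = 7.72e-07). PYL7 had 33.2, 34.9 and 33.7 FPKM in the transgenic lines, against 17.0, 15.7 and 16.0 FPKM in wild type. It was the member that rose, the log2 fold change being 1.02 (SE 0.0726, limma adjusted p = 5.03e-06). PYL9, a receptor known to promote drought-induced leaf senescence, had 17.3, 18.8 and 15.4 FPKM in the transgenic lines, against 16.9, 12.2 and 14.9 FPKM in wild type. These ranges overlapped, and the log2 fold change was 0.22 (SE 0.127, limma adjusted p = 0.205).

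PYL8 and PYL7 stood at nearly equal levels in the transgenic lines and far apart in wild type. The PYL7 values may include reads of an overlapping gene, described below. The FPKM ratio of PYL8 to PYL7 was 1.1, 1.02 and 1.07 in transgenic lines 1, 2 and 3, against 4.34, 4.86 and 4.82 in wild-type samples 1, 2 and 3. The ratio of PYL7 to PYL9 was 1.99 ± 0.174 in the transgenic lines and 1.12 ± 0.148 in wild type (SD, n = 3 each). These pairs were picked after their values were seen, and a ratio within a sample does not move when all its values are divided by 1 factor, as in TPM, though quantile normalization can move it.

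The gene models set limits on these values. On the TAIR10.1 annotation, PYL8 (AT5G53160) lies on chromosome 5 at 21560601 to 21562709, plus strand, PYL6 (AT2G40330) on chromosome 2 at 16844588 to 16846194, minus strand, and PYL7 (AT4G01026) on chromosome 4 at 446978 to 448511, plus strand. PYL7, PYL8 and PYL9 each have 3 exons, while the models used of the other members have 1, and each value covers the whole annotated gene. Of the 1240 exonic bases of PYL7, 571 (46.0%) also lie within AT4G01030, a gene on the opposite strand that was not analysed here, and whether counting used strand is not given in the sources used here. Reads of PYL7 and AT4G01030 in that stretch therefore cannot be told apart. This limit applies to the level, fold change, ratios and share of PYL7, and none of the alternative settings removes it. Another 45 exonic bases of PYL7 lie within a long noncoding RNA gene, and no other member overlapped an annotated gene. Sharing between paralogs was small by sequence. Of all 31-base words in the members' transcripts, at most 0.85% per member occurred elsewhere in the genome, and the longest run shared by any pair of members was 32 bases, between PYL7 and PYL9 (80.3% coding identity).

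The gate loop shows what the family shares whatever the direction of change. The codons of the loop are in capitals, with 15 bases on either side, for PYR1 as the founding member and for the 3 members that moved most, read from the genome (TAIR10.1, coding strand, 5′ to 3′).
PYR1: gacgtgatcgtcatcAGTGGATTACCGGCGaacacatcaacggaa
PYL6: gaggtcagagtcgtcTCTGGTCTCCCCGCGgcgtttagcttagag
PYL7: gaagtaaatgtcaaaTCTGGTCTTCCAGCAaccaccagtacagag
PYL8: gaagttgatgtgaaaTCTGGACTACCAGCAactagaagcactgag
Counted from the start codon, these are codons 85 to 89 in PYR1, 116 to 120 in PYL6, 89 to 93 in PYL7 and 85 to 89 in PYL8. All 9 members hold a loop with the same translation.

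The promoters of PYL4, PYL6 and PYL8, the 3 members called lower under all 14 alternatives, are shown. Each is the 300 bases before the annotated gene start (TAIR10.1, 5′ to 3′ on the gene's strand), and capitals mark matches to any of 4 motifs searched on both strands. They lie at chr2:16049618-16049917 (PYL4, plus strand), chr2:16846195-16846494 (PYL6, minus strand) and chr5:21560301-21560600 (PYL8, plus strand).
PYL4: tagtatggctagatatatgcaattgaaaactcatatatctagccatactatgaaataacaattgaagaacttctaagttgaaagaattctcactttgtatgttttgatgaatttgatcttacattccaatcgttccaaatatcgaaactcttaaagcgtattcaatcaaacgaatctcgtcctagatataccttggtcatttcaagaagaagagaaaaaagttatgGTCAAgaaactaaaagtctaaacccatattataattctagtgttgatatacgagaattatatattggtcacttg
PYL6: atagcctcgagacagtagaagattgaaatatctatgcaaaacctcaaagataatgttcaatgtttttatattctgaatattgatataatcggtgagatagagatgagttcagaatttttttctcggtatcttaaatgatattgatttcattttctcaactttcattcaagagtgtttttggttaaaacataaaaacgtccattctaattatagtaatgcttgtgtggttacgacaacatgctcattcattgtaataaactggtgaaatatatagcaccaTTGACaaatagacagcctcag
PYL8: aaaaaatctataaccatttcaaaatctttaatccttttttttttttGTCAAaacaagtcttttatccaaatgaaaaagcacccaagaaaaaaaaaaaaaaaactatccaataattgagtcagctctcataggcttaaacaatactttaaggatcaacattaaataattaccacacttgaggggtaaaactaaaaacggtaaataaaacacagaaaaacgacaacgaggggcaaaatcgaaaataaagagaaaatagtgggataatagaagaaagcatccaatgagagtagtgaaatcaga
The motifs were ACGTG, the core of the abscisic acid response element, CACGTG, the G-box, which holds the first motif within it, TTGAC, the core of the W-box bound by WRKY factors, and CCGAC, the core of the drought and cold response element. Each of the 3 promoters held 1 match to TTGAC and 0 to the other motifs. TTGAC was present in 50.6% of 21541 promoters of the same length, ACGTG in 26.7%, CACGTG in 7.9% and CCGAC in 14.6%. A match describes the letters of the window and is not evidence of binding. The corresponding window of PYL7 held 4 matches to ACGTG, 2 to TTGAC and 1 each to CACGTG and CCGAC, but 271 of its 300 bases lie within the neighbouring gene AT4G01023, and it is not printed. PYL5, the other member called lower with the values as deposited, held 0 matches to any of the 4 motifs. The log2 fold changes of PYL5, PYR1 and PYL1 were also negative under all 14 alternatives, though not always called. The PYR1 window held 1 match to ACGTG and 0 to the other motifs, and the PYL1 window held 0 to any.

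The order of the receptor levels differed between the groups. In the transgenic lines PYL5 was highest at 52.7 ± 5.72 FPKM, apart from the next member. PYL4 (39.6 ± 3.18 FPKM), PYR1 (38.5 ± 6.15 FPKM) and PYL8 (36.0 ± 0.446 FPKM) followed, and in this order each overlapped its neighbour. PYL7 (33.9 ± 0.856), PYL9 (17.2 ± 1.7) and PYL1 (11.1 ± 0.892 FPKM) came next, each apart from the one before it, and PYL6 (1.27 ± 0.507) and PYL2 (0.997 ± 0.904 FPKM) overlapped at the bottom. In wild type PYL8 was highest at 75.7 ± 1.71 FPKM, then PYL5 at 62.7 ± 1.12 FPKM, with ranges apart. PYL4 (55.4 ± 2.74 FPKM) and PYR1 (50.2 ± 10.7 FPKM) overlapped, as did PYL7 (16.2 ± 0.683), PYL9 (14.7 ± 2.38) and PYL1 (13.6 ± 1.86 FPKM) along that order. PYL6 (8.77 ± 0.29) and PYL2 (0.767 ± 0.454 FPKM) were lowest and apart. Each error is an SD over 3 samples. PYL8 thus ranked 4 in the transgenic lines and 1 in wild type.

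FPKM are scaled for length and can be added over genes. The 9 receptors summed to 219, 242 and 233 FPKM in transgenic lines 1, 2 and 3, against 291, 292 and 312 FPKM in wild-type samples 1, 2 and 3. Every transgenic sum was below every wild-type sum, and the transgenic mean was 0.777 of the wild-type mean. Subfamily I summed to 87.1 ± 2.14 FPKM in the transgenic lines and 107 ± 1.99 FPKM in wild type, subfamily II to 93.6 ± 5.7 FPKM in the transgenic lines and 127 ± 1.5 FPKM in wild type (SD, n = 3 each). Subfamily III summed to 50.7 ± 7.14 FPKM in the transgenic lines and 64.6 ± 12.7 FPKM in wild type. The sums of subfamilies I and II did not overlap between the groups, and those of subfamily III did.

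Shares of the pool do not move when all values of a sample are divided by 1 factor, though quantile normalization can move them. PYL8 held 16.7%, 14.7% and 15.4% of the receptor FPKM in transgenic lines 1, 2 and 3, against 25.4%, 26.2% and 24.7% in wild type. PYL7 held 15.2%, 14.4% and 14.4% in the transgenic lines, against 5.85%, 5.39% and 5.12% in wild type. The 9.8 percentage points lost by PYL8 were close in size to the 9.22 points gained by PYL7, a pair picked after its values were seen. Shares must add up to the whole of a pool that was smaller in the transgenic lines. The levels did not change by like amounts. PYL8 averaged 36.0 FPKM in the transgenic lines and 75.7 FPKM in wild type, and PYL7 33.9 and 16.2 FPKM. Subfamily I as a whole held 37.7 ± 1.81% in the transgenic lines and 35.8 ± 1.24% in wild type, with overlapping ranges. PYL6 held 0.543 ± 0.194% in the transgenic lines and 2.94 ± 0.0269% in wild type. PYL9 held 7.43 ± 0.708% in the transgenic lines and 4.93 ± 0.834% in wild type, without overlap, although its FPKM ranges overlapped (SD, n = 3 each). The shares of PYR1, PYL1, PYL2, PYL4 and PYL5 overlapped between the groups.

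**Figure D2:**
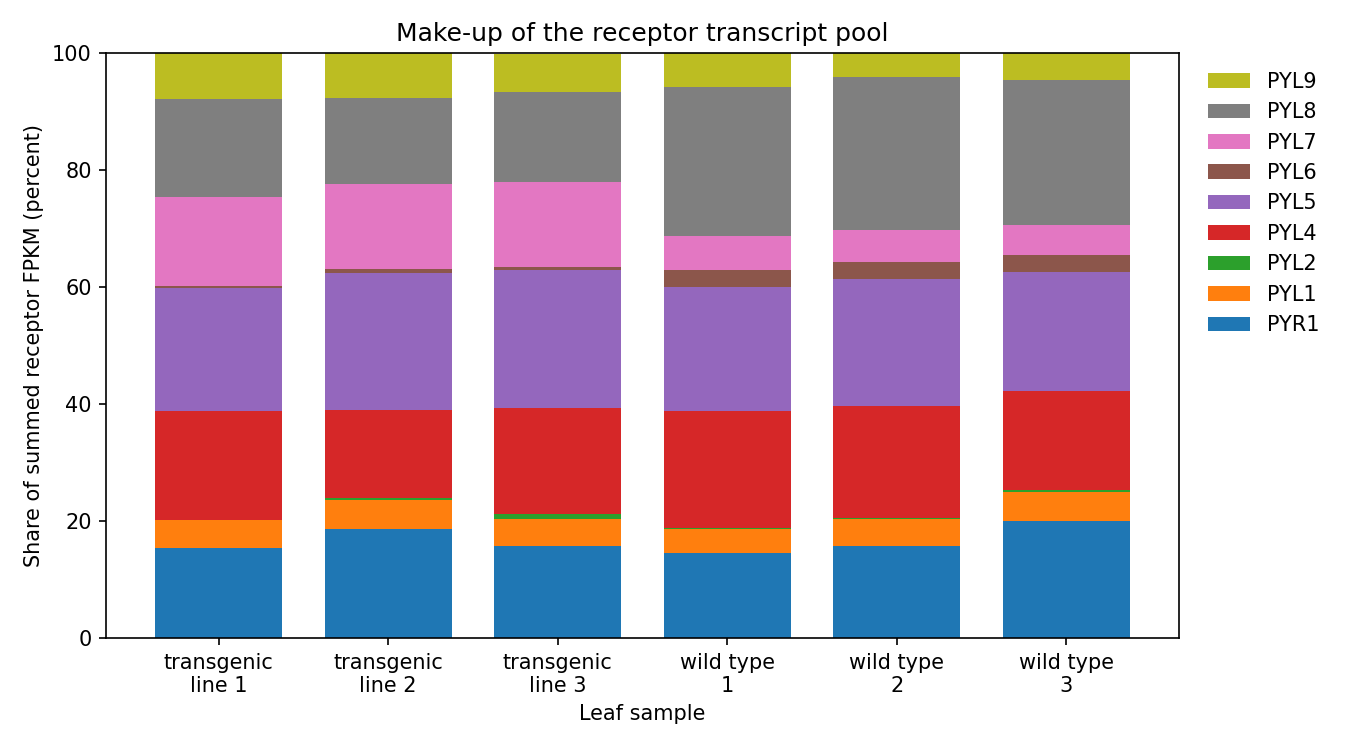
Share of the summed receptor FPKM held by each of the 9 genes, in percent, as stacked bars from 0 to 100 for each transgenic line (left) and each wild-type sample (right). PYL7 widens to 14.4% or more in every transgenic line, PYL8 narrows to 16.7% or less, and PYL6 shrinks to 0.712% or less.

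What the deposited values were divided by is not given in the sources used here, and their sums differed between the groups, so each change was also read after other scalings. Summed FPKM over all genes were 1278449, 1261802 and 1272266 in the transgenic lines, against 976844, 970376 and 982620 in wild type. Median-of-ratios size factors were 1.02 in each transgenic line and 0.984 to 1.00 in wild type. Rescaling each sample to the same total (TPM) moved the median log2 fold change of all tested genes from 0.03 to -0.31. With TPM, PYL7 had a log2 fold change of 0.65 (limma adjusted p = 9.61e-05) and PYL8 one of -1.42 (adjusted p = 1.78e-07), so both kept their direction against either baseline. PYL9 turned to -0.14 with TPM and was not called (limma adjusted p = 0.364). With TPM the members called numbered 1 higher and 6 lower, where 11.2% of all tested genes were higher and 48.9% lower, and after quantile normalization 1 higher and 5 lower, where 19.1% were higher and 20.2% lower. The receptor sum was 0.597 of wild type with TPM.

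**Figure D3:**
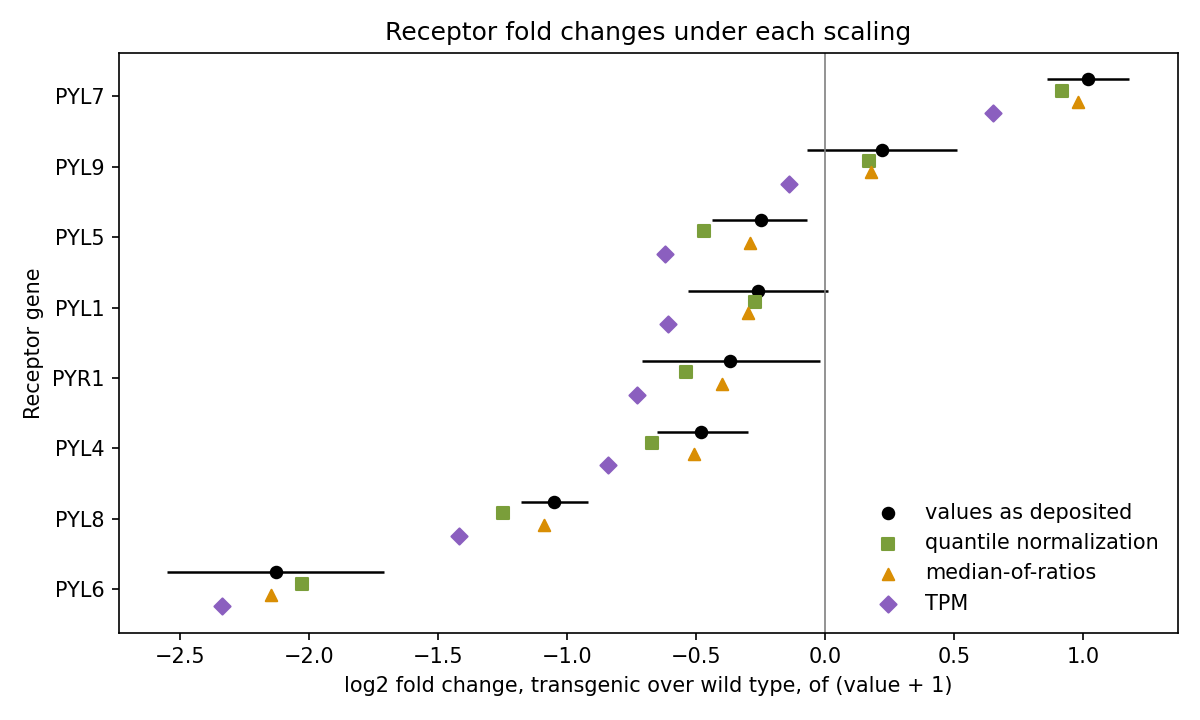
Log2 fold change, transgenic over wild type, of the 8 tested receptor genes with the values as deposited (circles, with limma 95% confidence intervals not adjusted for multiple tests) and after quantile normalization, median-of-ratios scaling and TPM. PYL7 stays above 0 and PYR1, PYL1, PYL4, PYL5, PYL6 and PYL8 below 0 under each of these scalings, while PYL9 crosses 0 with TPM.

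Of the rest of the receptor family, PYL10 and PYL11 were in the table and neither reached a mean of 1 FPKM, while PYL3, PYL12 and PYL13 were not analysed here. PYL11 was listed at 0 in all 3 transgenic lines, against 1.23, 0.198 and 0.93 FPKM in wild type. PYL10 was at 0, 0 and 0.168 FPKM in the transgenic lines and at 0, 0 and 0.519 FPKM in wild type.

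The co-receptors are the clade A PP2C genes, and of 6 tested 3 were higher, 1 was lower and 2 were not called. Over all tested genes 25.0% were higher and 15.7% lower, so rises outnumbered falls there too. The median log2 fold change of the PP2C genes was 0.37, against 0.03 over all tested genes. ABI1, the phosphatase that the classic abi1 mutant defines, had 50.6, 48.9 and 47.2 FPKM in the transgenic lines, against 33.1, 36.1 and 32.4 FPKM in wild type (log2 fold change 0.52, SE 0.068, limma adjusted p = 0.000271). PP2CA averaged 85.2 ± 1.68 FPKM in the transgenic lines and 60.2 ± 2.24 FPKM in wild type, and HAI1 averaged 11.1 ± 1.05 FPKM in the transgenic lines and 7.06 ± 0.47 FPKM in wild type; both rose (limma adjusted p = 9.16e-05 and 0.00234). ABI2, the closest relative of ABI1, fell to 3.35 ± 0.402 FPKM in the transgenic lines, against 5.15 ± 0.17 FPKM in wild type (SD, n = 3 each; limma adjusted p = 0.0151). Leaving out wild-type sample 1 ended the call of ABI2 (limma adjusted p = 0.0509), and so did quantile normalization (0.0539). HAB1 and HAB2 had log2 fold changes of 0.25 and 0.24 and were not called (limma adjusted p = 0.0842 and 0.0696), though HAB2 was called without wild-type sample 1 (0.0295). HAI2 lay under 1 FPKM in every sample, and HAI3 and AHG1 were listed at 0 in all 6. With TPM 0 of the PP2C genes were higher and 1 lower, with a list median of 0.01, against the median of -0.31 for all genes. Of all tested genes 11.2% were higher and 48.9% lower with TPM. The ratio of the receptor sum to the PP2C sum, which dividing a sample by 1 factor cannot move, was 1.16, 1.33 and 1.28 in transgenic lines 1, 2 and 3, against 2.1, 2.16 and 2.31 in wild-type samples 1, 2 and 3, with no overlap.

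Among the kinase and transcription factor genes that act next after the co-receptors the changes were small. Of 8 tested SnRK2 kinase and transcription factor genes, 1 was higher, 2 lower and 5 not called (median -0.16). Among all tested genes 25.0% were higher and 15.7% lower (median 0.03). With TPM 0 of the 8 were higher and 7 lower (median -0.51). Under that scaling 11.2% of all tested genes were higher and 48.9% lower (median -0.31). The channel gene of the list, SLAC1, averaged 0.579 ± 0.121 FPKM in the transgenic lines and 1.06 ± 0.374 FPKM in wild type (SD, n = 3 each). Its groups did not overlap, and its mean over all samples was too low for testing. ABF2 averaged 12.8 ± 1.19 FPKM in the transgenic lines and 10.0 ± 0.338 FPKM in wild type (limma adjusted p = 0.0308), and its log2 fold change was 0.32 as deposited and -0.03 with TPM. ABF2 lost its call, and with it the list its 1 higher gene, under the replicate block (limma adjusted p = 0.0544) and without any single sample other than transgenic line 2 (adjusted p from 0.0548 to 0.0959). ABF1, of the same group of transcription factors, averaged 18.7 ± 0.475 FPKM in the transgenic lines and 25.2 ± 2.1 FPKM in wild type (SD, n = 3 each; limma adjusted p = 0.004). The other gene that fell was ABF4, named after its values were seen.

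Genes for turnover and modification of the receptors showed 6 rises and 0 falls among 18 tested (median -0.03), where 25.0% of all tested genes were higher and 15.7% lower. After TPM 4 were higher and 10 lower, where 11.2% of all tested genes were higher and 48.9% lower. Without transgenic line 2, without wild-type sample 1, after median-of-ratios scaling or under the replicate block, 1 of the genes was called lower. PUB22, a ubiquitin ligase that marks PYL9 for breakdown, averaged 45.3 ± 2.37 FPKM in the transgenic lines and 19.1 ± 1.02 FPKM in wild type (log2 fold change 1.2, SE 0.075, limma adjusted p = 2.19e-06). Its close partner PUB23 averaged 271 ± 2.91 FPKM in the transgenic lines and 134 ± 4.25 FPKM in wild type. VPS23A and FREE1 are endosomal sorting proteins that carry receptors to the vacuole. VPS23A averaged 64.4 ± 3.71 FPKM in the transgenic lines and 43.3 ± 1.33 FPKM in wild type, and FREE1 averaged 56.8 ± 4.1 FPKM in the transgenic lines and 41.8 ± 1.4 FPKM in wild type (SD, n = 3 each). CARK1, a kinase of the receptors, and CAR9, of the family that brings receptors to membranes, were the other 2 that rose. All but PUB22 were named after their values were seen.

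Around the receptors, 3 of 6 tested abscisic acid synthesis genes were higher and 0 lower, and with TPM 2 and 1. For this and the next lists, 11.2% of all tested genes were higher and 48.9% lower with TPM. NCED3, the key enzyme of synthesis, had 73.3, 70.0 and 71.9 FPKM in the transgenic lines, against 6.33, 6.98 and 7.03 FPKM in wild type. Of 4 tested breakdown and release genes 2 were higher and 0 lower, and with TPM 0 and 1. The 2 became 1 without any single sample other than transgenic line 3, and also with no filter, median-of-ratios scaling, no trend or the replicate block. CYP707A3, which inactivates the hormone, averaged 82.7 ± 2.91 FPKM in the transgenic lines and 58.8 ± 1.13 FPKM in wild type. Among 4 transport genes, DTX50, an exporter of the hormone, rose to 252 ± 8.54 FPKM in the transgenic lines, against 121 ± 4.26 FPKM in wild type. NPF4.6, an importer, fell to 28.2 ± 2.52 FPKM in the transgenic lines, against 42.0 ± 4.36 FPKM in wild type (SD, n = 3 each), and the other 2 were not called, with 1 higher and 3 lower after TPM. Output genes of the pathway showed 8 rises and 1 fall among 12 tested (median 1.03), and 8 higher and 3 lower after TPM. With the values as deposited, the 3 not called were HB7, HB12 and GOLS2. RD29B averaged 0.362 FPKM in the transgenic lines and 0.365 FPKM in wild type, too low for testing. HB7, HB12, GOLS2 and RD29B were named after their values were seen. RD29A, a stress-inducible gene, averaged 562 ± 5.09 FPKM in the transgenic lines and 204 ± 17.3 FPKM in wild type, and RD22, also known as drought-inducible, averaged 241 ± 6.04 FPKM in the transgenic lines and 289 ± 17.2 FPKM in wild type. Over these 7 lists, 24 of 58 tested genes were higher, 5 lower and 29 not called, where 25.0% of all tested genes were higher and 15.7% lower. After quantile normalization the higher and lower counts were 3 and 0 for the PP2C genes, 1 and 4 for the kinase and transcription factor genes, 5 and 2 for turnover, and 1 and 1 for breakdown and release. Of all tested genes 19.1% were then higher and 20.2% lower.

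**Figure D4:**
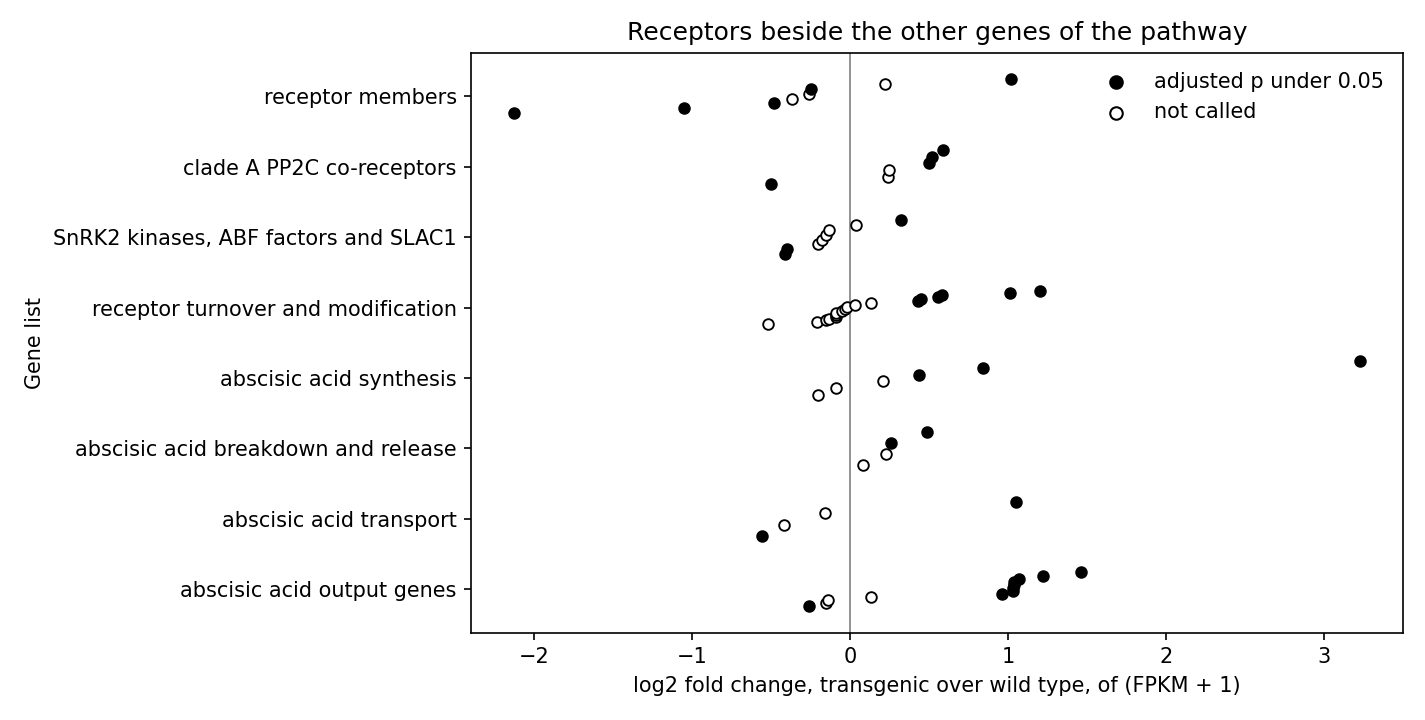
Log2 fold change, transgenic over wild type, of (FPKM + 1) for each tested gene of the receptor family and of 7 other gene lists of the pathway, filled where the limma adjusted p was under 0.05 and open where it was not. The receptors run from -2.13 to 1.02, with 4 filled points below 0 and 1 above.

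By the root mean square difference of mean-centred log2(FPKM + 1) over the 6 samples, the genes most like PYL7 were AT5G11650 (0.0283), the protein kinase gene S6K2 (0.0291) and AT5G42050 (0.0304), with log2 fold changes of 1.05 to 1.07. Those most like PYL6 were AT1G26800 (0.11), GDU3 (0.112) and AT3G13980 (0.151), with log2 fold changes of -2.15 to -1.89. With 3 samples in each of 2 groups, this measure mainly reflects the size of the group difference.

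The samples held strong leaf transcripts, and the markers of other cell types moved too. The 6 mesophyll markers summed to 40498 to 41858 FPKM in the transgenic lines and 23186 to 24091 FPKM in wild type, and all 6 were called higher. Their median log2 fold change was 0.83 as deposited, 0.45 with TPM (6 higher) and 0.38 after quantile normalization (4 higher). The shares of all tested genes called higher and lower were 25.0% and 15.7% as deposited. They were 11.2% and 48.9% with TPM, and 19.1% and 20.2% after quantile normalization. The 5 guard cell markers summed to 225 to 266 FPKM in the transgenic lines and 120 to 139 FPKM in wild type, with 2 of 5 called higher, GC1 and HT1, and the other 3, FAMA among them, not called. GC1 made up most of that sum, at 220 ± 21.5 FPKM in the transgenic lines and 111 ± 11.4 FPKM in wild type (SD, n = 3 each). The log2 fold change was -0.18 for FAMA, 0.32 for MYB60 and 0.44 for KAT1. After quantile normalization 3 guard cell markers were higher and 0 lower, and with TPM 2 were higher and 1 lower. Of the companion cell markers SUC2 rose and APL was not called. The 5 shoot meristem and flower markers summed to 13.9 to 17.8 FPKM in the transgenic lines and 32.8 to 36.7 FPKM in wild type. STM, which maintains the meristem, made up most of that at 9.87 ± 0.322 FPKM in the transgenic lines and 27.4 ± 1.26 FPKM in wild type (SD, n = 3 each). The 5 root markers summed to 78.0 to 84.0 FPKM in the transgenic lines and 121 to 129 FPKM in wild type, most of it PYK10, and the root hair gene RHD6 and the root cap gene SMB were at 0 in every sample but wild-type sample 1. Of 4 tested meristem and flower markers 1, STM, was called lower, and 2 with TPM. Of 3 tested root markers 2, PYK10 and SHR, were called lower, and 3 with TPM. The part of these shifts in the receptor changes was not tested.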

How the data were processed

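Polyadenylated RNA of 6 leaf samples was sequenced on an Illumina HiSeq, per the labels' protocols. The authors deposited 1 table of FPKM with 1 column per sample. TopHat2, DESeq and the TAIR10 build are named in the submitters' processing notes with no version or role, while the FPKM program, annotation and strand use stay unnamed, being not given in the sources used here. FPKM give no read numbers. Ratios of low values to wild-type sample 1 had their most common log2 values between -0.66 and 0.52, each held by only 2.3% to 4.1% of low genes, so no whole reads were recovered and no count test or counting interval is given.

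Genes averaging at least 1 FPKM entered a fit with limma 3.58.1 (R 4.3.3) of the deposited values as log2(FPKM + 1), with a mean-variance trend, no covariate and Benjamini-Hochberg adjustment over all 17093 genes, called under 0.05. SE are limma's moderated errors. The fit was tested on simulated data. Alternatives were a pseudocount of 0.1, no filter, a minimum mean of 5 FPKM, quantile normalization, TPM, median-of-ratios scaling, no trend, the title number as a replicate block, and each sample left out. The members and lists were chosen with earlier results of these data known. No list was tested as a set. All receptors and PP2C genes in the table were named, and from each other list the called genes with the largest rise and fall, unless stated. Of 109 listed loci, 103 were in the table, and 92 symbols matched the reference. Coordinates, exons and sequences are from the RefSeq annotation of TAIR10.1, with Biopython 1.88.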

Additional observations from a re-analysis of the deposited data

How the results depend on the processing

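The calls and directions of PYL4, PYL6, PYL7 and PYL8 held under all 14 alternatives, with log2 fold changes of -0.84 to -0.41, -2.77 to -1.94, 0.65 to 1.06 and -1.42 to -1.04. The number of members called was 1 higher in each, and 3 to 6 lower. PYL5 had a log2 fold change of -0.25 and lost its call with no filter (limma adjusted p = 0.051) and without the trend (0.0797), and leaving out 1 sample gave -0.31 to -0.16. PYR1 was called after quantile normalization (-0.54) and TPM (-0.73), with -0.49 to -0.2 when 1 sample was left out, and PYL1 after TPM (-0.61), with -0.36 to -0.18. PYL9 reversed to -0.14 with TPM, as did ABF2 (-0.03), HAB1 (-0.1) and HAB2 (-0.12). TPM moved the log2 ratio of the receptor sums from -0.36 to -0.74 and the calls over all genes to 1907 higher and 8363 lower, against 4273 and 2676 with the values as deposited. The 7 pathway lists together had 24 higher and 5 lower, 15 and 26 with TPM, 9 lower after quantile normalization and 8 lower with no filter. TPM divides by each sample's own sum, which differed between the groups. For the other changes the cause was not tested. No pairing by title number was visible in these values. Deviations of same-numbered samples correlated across genes at -0.04, 0.05 and -0.02, and of the lines only line 2 correlated best with its own number. Such correlations cannot tell whether same-numbered samples were grown or handled together. With the replicate block 4155 genes were higher and 2551 lower, with 1 receptor higher and 4 lower. Under the block the log2 fold changes were the same, and PYL5 had an adjusted p of 0.029. Precision rests on 3 samples per group, since the depth is unknown.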
